A study of Canis lupus familiaris with 6 samples.

Results

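Glucose uptake and glycogen metabolism were followed in the left ventricle of dogs through 9 genes, SLC2A1, SLC2A4, PYGM, PYGB, GYS1, GBE1, UGP2, PGM1 and GYG1. The members were chosen by gene symbol, and every probe set whose only symbol in the array annotation was one of the 9 was used, which gave 24 probe sets of 42924 (9 of 15115 genes). RNA of 6 hearts was hybridised to Affymetrix canine arrays, with an array for each dog. The affected dogs were 3 Great Danes diagnosed with cardiomyopathy, a female of 9 years (affected 1) and males of 7 years (affected 2 and affected 3). The control group held a male Labrador retriever of 12 years (control 1), a female St. Bernard of 10 years (control 2) and a male Greater Swiss Mountain dog of 4 years (control 3). Disease and breed cannot be told apart in this design. Per the labels the dogs are biological replicates, and no treatment beyond freezing of the tissue is recorded for either group. All values below are on the log2 scale and relative to the median of the same probe set on the 6 arrays, so the levels of different genes could not be set against each other. The probe sets of a gene are lettered from a, and the plots give their identifiers. Of the 24, 13 carry the suffix _s_at, which marks probes that can match more than one transcript. They are SLC2A1 c, both of SLC2A4, PYGB b and c, GYS1 b, GBE1 a, UGP2 b and d, PGM1 b, c and e, and GYG1 a.

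Cardiac muscle takes up glucose through facilitative transporters. GLUT4, encoded by SLC2A4, is moved to the cell surface by insulin and by contraction, and GLUT1, encoded by SLC2A1, sits there without insulin and is the more prominent form in the fetal heart. Glucose that is not burned at once can be stored as glycogen: phosphoglucomutase (PGM1) interconverts the glucose phosphates, UGP2 makes UDP-glucose, glycogenin (GYG1) primes a new particle, glycogen synthase (GYS1) lengthens the chains and GBE1 branches them. Glycogen phosphorylase releases the glucose again, and its muscle (PYGM) and brain (PYGB) forms are both found in heart.

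None of the 9 genes differed between affected and control hearts past the adjusted threshold. The adjusted p of the 24 probe sets ran from 0.296 to 0.920 in limma, against 1 of all 42924 probe sets past the threshold (0.00233%). At an unadjusted p under 0.05, which has no control of false calls, 2 member probe sets were higher in affected hearts, both of GYG1, and 1 was lower, of GBE1. Over all probe sets these shares were 4.53% higher and 6.32% lower, or 10.9% in either direction, so 3 of 24 member probe sets lay near the background. The higher count was 0 without affected 1, 1 without affected 3, control 1 or control 3, and 4 without control 2. The lower count was 0 without affected 1, control 1 or control 2, and 2 without affected 2. The share of all probe sets, in either direction, was 4.85% without affected 1, 9.08% without affected 2 and 4.83% without affected 3. It was 6.12% without control 1, 35.7% without control 2 and 6.67% without control 3. No member probe set reached a difference of 2-fold. The largest were 0.66 for a probe set of SLC2A1 and -0.77 for one of GBE1. Their median was 0.10, with 14 of 24 above 0, against a median of -0.08 over all probe sets with 14168 of 42924 above 0.

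**Figure D1:**
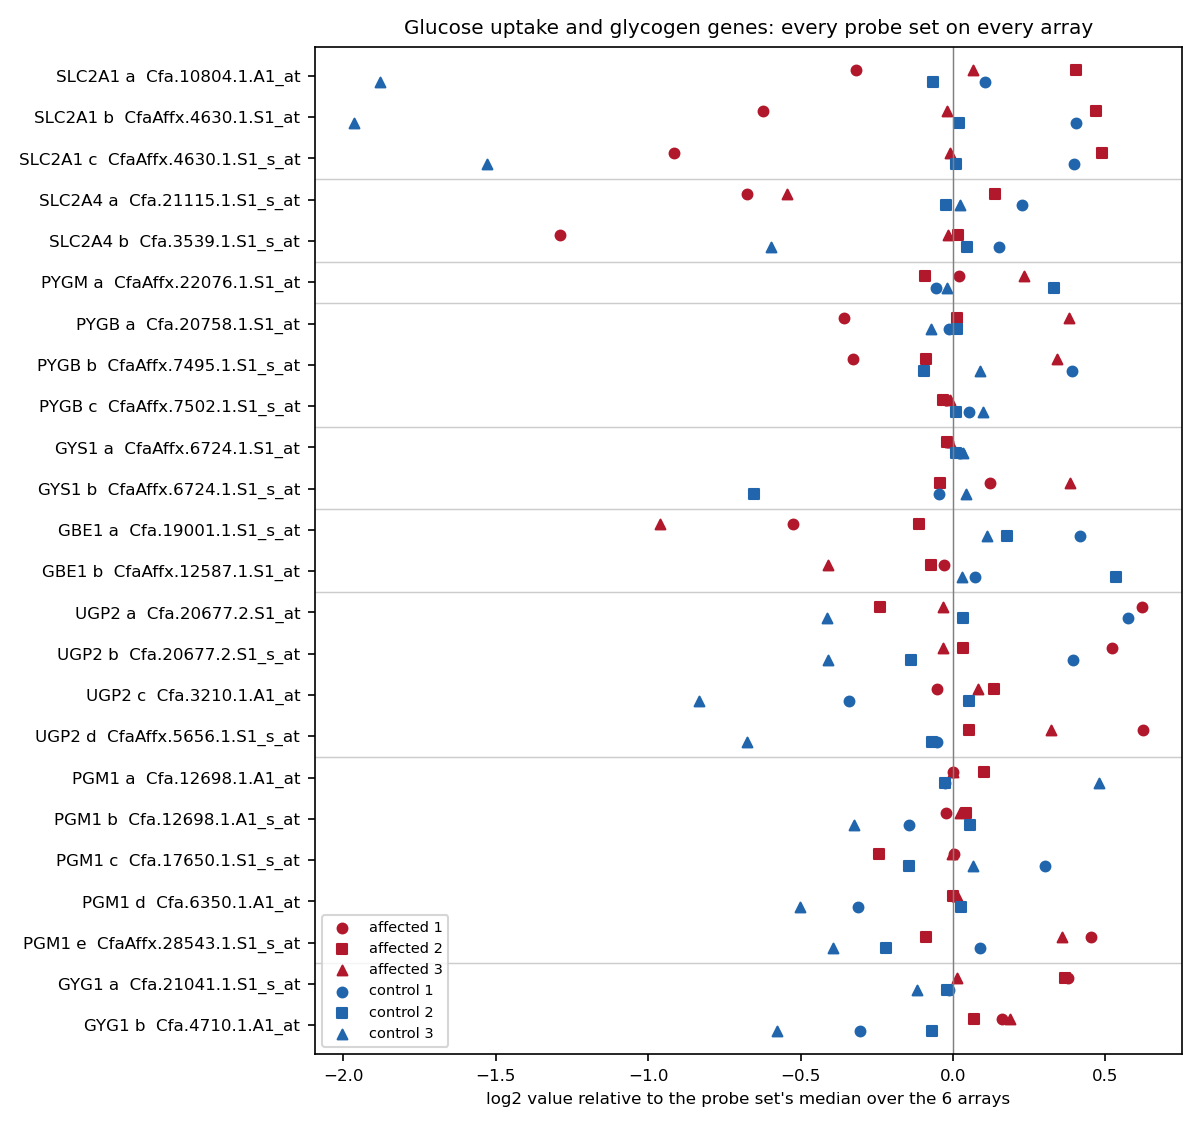
Log2 value of each member probe set (rows, grouped by gene) on each of the 6 arrays, relative to that probe set's median; red symbols are the affected and blue symbols the control dogs, with the symbol shape giving the dog's number. The 3 SLC2A1 rows reach farthest left, at control 3 (-1.53 to -1.96), and the 2 GBE1 rows have every affected symbol left of every control symbol.

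A lack of overlap between the groups was frequent on these arrays. In 7 of the 24 member probe sets the affected and control values did not overlap (3 higher and 4 lower), against 52.2% of all probe sets (5.37% higher and 46.9% lower). The 17 tag control probe sets, which are not designed to dog transcripts, also lay apart, with mean values of -0.03, -0.03 and -0.01 on affected 1 to 3 and 0.06, 0.01 and 0.13 on control 1 to 3. Of all probe sets, 41.8% followed this profile at a correlation over 0.9 across the 6 arrays. Among the members 2 probe sets did, one of PYGB and one of GYS1, and both were among the 4 lower ones. Among probe sets that did not follow the tags, 21.3% lacked overlap (9.23% higher and 12% lower), and 5 of the 22 such member probe sets did (3 higher and 2 lower). A profile opposite to the tags, at a correlation under -0.9, was seen in 2.52% of all probe sets and in 4 of the 24. What the tag profile contributed to the group differences was not tested.

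The arrays themselves were not alike. On control 3, 1683 probe sets had values below -1, where the remaining 5 arrays had 161 to 510, and it held the lowest value of 12 of the 24 member probe sets (18.1% of all probe sets, and 31.1% of those not following the tags). The 36 probe sets of the spiked dap, lys, phe and thr transcripts had a median of 2.38 on affected 3 and 0.58 on affected 1, against -0.19 on affected 2 and -0.14 to -0.01 on the controls. Those of the bioC spike had medians of -1.53 on affected 1 and -1.28 on affected 3, against -0.04 on affected 2 and 0.06 to 0.14 on the controls. A beta-actin control pair gave a 3' minus 5' difference, which is higher where RNA is more degraded, of 0.36, -0.22 and -0.05 on affected 1 to 3 and 0.34, 0.05 and -0.31 on control 1 to 3. A second beta-actin pair gave 0.42, -0.29 and 1.05 in affected dogs and -0.46, 0.08 and -0.08 in control dogs, so the pairs did not rank the arrays alike. A GAPDH pair varied less, with 0.06, 0.02 and 0.00 in affected dogs and -0.05, -0.01 and -0.08 in control dogs. The other GAPDH pair gave -0.01, 0.26 and -0.06 in affected dogs and -0.03, 0.30 and -0.19 in control dogs, highest in the second dog of each group. With a term for affected 1 and affected 3, the comparison set 1 dog, affected 2, against the 3 controls.

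Cell type markers moved with the arrays as well. In whole tissue, fewer cells of a type and less RNA per cell cannot be told apart. Of the cardiomyocyte markers 12 of 13 were measured and none followed the tags, with a median difference of 0.16 and 9 above 0. Their median on an array lay at -0.02, 0.02 and 0.12 in the affected and 0.02, -0.07 and -0.18 in the control dogs. Fibroblast markers (10 of 10 measured, 8 above 0, median difference 1.44) had medians of 1.04, 0.06 and 0.69 on affected 1 to 3 and -0.30, -0.08 and -1.43 on control 1 to 3. Macrophage markers (10 of 10, all above 0, median difference 0.74) were high on 1 array of each group, with medians of 2.43, -0.13 and -0.01 in affected dogs and 1.51, -0.42 and -0.61 in control dogs. Adipocyte markers (8 of 8, 4 above 0, median difference 0.27) had medians of 1.28, -0.16 and -0.04 in affected dogs and 0.02, -0.08 and -0.02 in control dogs. The median differences of the other lists were -0.27 for blood vessel endothelium (9 of 9 measured, 3 above 0), 0.00 for smooth muscle and pericytes (8 of 8, 4 above 0), -0.32 for red blood cells (3 of 9, 0 above 0), -0.10 for skeletal muscle (8 of 9, 2 above 0) and -0.09 for neurons and glia (8 of 10, 1 above 0). In the last 3 lists, 2, 5 and 4 of the measured genes followed the tags. The part of any of these cell types in the results below was not tested.

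The insulin-independent transporter gene SLC2A1 varied more than any other member and did so mostly within the groups. Its 3 probe sets lay between the 94.1 and 96.3 percentiles of all probe sets by range, and they ran alike across the arrays (correlations of 0.91 to 0.98 over 6 arrays, which share their RNA and gene). Probe set a had values of -0.32, 0.40 and 0.07 on affected 1 to 3 and 0.11, -0.07 and -1.88 on control 1 to 3. Control 3, the youngest dog, was far below the other 5, and the groups overlapped. Probe set b gave -0.62, 0.47 and -0.02 in the affected and 0.40, 0.02 and -1.96 in the control dogs, and probe set c gave -0.91, 0.49 and -0.01 in the affected and 0.40, 0.01 and -1.53 in the control dogs. In all 3, affected 2 was highest, control 3 lowest and affected 1 next to lowest.

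As a gene mean, SLC2A1 was -0.05 ± 0.54 in affected and -0.50 ± 1.13 in control hearts (SD, n = 3 each). The difference of 0.45 (SE 0.63, limma adjusted p = 0.628) was smaller than the spread of either group, with a 95% interval from -1.14 to 2.04. Its sign hung on 1 dog: without control 3 the difference was -0.20 (limma adjusted p = 0.752). It was 0.85 without control 1, 0.69 without control 2, 0.73 without affected 1 and 0.20 without affected 2, so each of these dogs moved it by more than 1.5 times. Fibroblast, macrophage and cardiomyocyte markers were also lowest on control 3, at -1.43, -0.61 and -0.18. On affected 1, next to lowest for SLC2A1, fibroblast markers were instead highest, at 1.04. A link between these markers and SLC2A1 was not tested.

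SLC2A4, the insulin-responsive transporter gene, was lower in the affected mean. That came from affected 1 in probe set b and from affected 1 and affected 3 in probe set a. Probe set a had values of -0.68, 0.14 and -0.54 on affected 1 to 3 and 0.23, -0.02 and 0.02 on control 1 to 3. Affected 1 and affected 3, the arrays whose spikes stood apart, were low, while affected 2 lay within the controls. The difference of probe set a, -0.44, was -0.28 without affected 1 and -0.35 without affected 3. Probe set b had -1.29, 0.02 and -0.02 in the affected and 0.15, 0.05 and -0.60 in the control dogs, so there only affected 1 lay below all controls. Its difference of -0.30 was 0.13 without affected 1. The gene mean was -0.40 ± 0.54 in affected and -0.03 ± 0.24 in control hearts (SD, n = 3 each), a difference of -0.37 (SE 0.30, limma adjusted p = 0.413, 95% interval -1.12 to 0.39). Without affected 1 it was -0.07, without affected 2 it was -0.60, and with the term for affected 1 and affected 3 it was 0.11.

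Taken as a ratio of gene means within each array, the transporters did not overlap between the groups, although each gene did by itself. SLC2A1 minus SLC2A4, as gene means, was 0.36, 0.38 and 0.29 on affected 1 to 3 and 0.11, -0.02 and -1.50 on control 1 to 3. All 3 affected values lay above all control values. Such a lack of overlap was seen in 23% of all pairs of gene means, and in 6.74% of the pairs in which each gene overlapped by itself, and the pair was picked from the members. As gene means, the affected values lay within 0.1 of each other, although both genes were low in affected 1 and SLC2A1 was highest in affected 2. Single probe sets did not show this closeness. SLC2A1 a and SLC2A4 b were far apart on affected 1 (-0.32 and -1.29) and close on affected 3 (0.07 and -0.02). For the gene means, the gap to the nearest control, control 1, was smaller than the gap between control 2 and control 3. Single probe sets did not all keep the affected dogs above the controls. SLC2A1 c lay below SLC2A4 a on affected 1 (-0.91 against -0.68) and above it on control 1 (0.40 against 0.23). Probe sets a of both genes did keep the groups apart. The difference of gene means was given no test, since it is built from the members. It shows unequal values of the probes of both genes, not more GLUT1 than GLUT4. The phosphorylase pair showed no such order. PYGB minus PYGM was -0.25, 0.06 and 0.00 in the affected and 0.20, -0.35 and 0.06 in the control dogs.

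**Figure D2:**
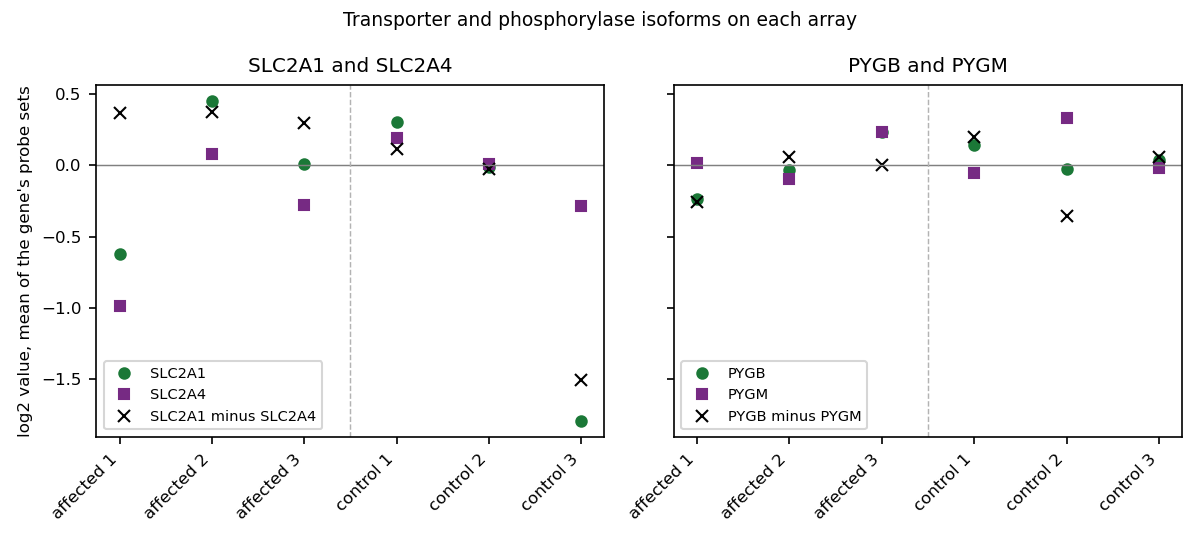
Gene means of SLC2A1 and SLC2A4 (left) and of PYGB and PYGM (right) on each array, in log2 relative to each probe set's median, with crosses for the difference within the array; affected dogs stand left of the dashed line and control dogs right of it. The crosses of the transporter pair lie at 0.29 to 0.38 in the affected and at -1.50 to 0.11 in the control dogs, and those of the phosphorylase pair overlap.

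Among the genes that build glycogen, GYG1 and GBE1 were the members whose groups were apart in every one of their probe sets, in opposite directions. The share of all genes that met this was not counted. GYG1 encodes the self-glucosylating primer glycogenin. Its probe set b had values of 0.16, 0.07 and 0.19 on affected 1 to 3 and -0.30, -0.07 and -0.58 on control 1 to 3, a difference of 0.46 (SE 0.14, limma adjusted p = 0.296). This profile ran opposite to the tag controls, with a correlation of -0.97. Probe set a had 0.38, 0.37 and 0.01 in the affected and -0.01, -0.02 and -0.12 in the control dogs, a difference of 0.30 (SE 0.12, limma adjusted p = 0.296, correlation with the tags -0.76). Affected 3 was close to the controls in this probe set and highest in the other.

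As a gene mean GYG1 was 0.20 ± 0.09 in affected and -0.18 ± 0.15 in control hearts (SD, n = 3 each). The difference of 0.38 (SE 0.10) was 1.30-fold and larger than the spread of either group, with a 95% interval from 0.14 to 0.62 that is not adjusted for the number of genes. The limma adjusted p over all genes was 0.322. Gene means without overlap made up 47.5% of all genes, and an unadjusted p under 0.05 was reached by 10.5% (4.88% higher and 5.64% lower). Of the 9 member genes, GYG1 and GBE1 met both criteria. The share of all genes that met both was not counted. Of the 7182 genes without overlap, 5343 followed the tags. Neither GYG1 nor GBE1 did, but the GYG1 probe sets ran opposite to the tags, with correlations of -0.76 and -0.97. What the tag profile contributed to the GYG1 difference was not tested. In the 6 fits that left out 1 array, the GYG1 difference ran from 0.30 without control 3 to 0.45 without control 2.

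GBE1, the branching enzyme gene whose loss causes a glycogen storage disease, was the member with the largest negative difference. Probe set a had values of -0.52, -0.11 and -0.96 on affected 1 to 3 and 0.42, 0.18 and 0.11 on control 1 to 3, a difference of -0.77 (SE 0.23, limma adjusted p = 0.296), or 1.70-fold lower. All affected values were below all control values, with affected 2 closest to the controls and affected 3 farthest. Probe set b had -0.03, -0.07 and -0.41 in the affected and 0.07, 0.53 and 0.03 in the control dogs, a difference of -0.38 (SE 0.18, limma adjusted p = 0.296). Here the gap between affected 1 and control 3 was under 0.1, and the difference was -0.22 without control 2 and -0.26 without affected 3. Neither probe set followed the tags (correlations of 0.57 and 0.21).

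The gene mean of GBE1 was -0.35 ± 0.30 in affected and 0.22 ± 0.14 in control hearts (SD, n = 3 each), a difference of -0.58 (SE 0.17, limma adjusted p = 0.322, 95% interval -1.01 to -0.14). It ran from -0.71 without affected 2 to -0.41 without affected 3. For affected 2 alone against the controls it was -0.32. The sign was negative in all 16 alternatives run for the gene, but only quantile normalization, median centring and age could have turned it. The others gave the same difference or rested on groups that were apart in both probe sets. No limma adjusted p was under 0.172.

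**Figure D3:**
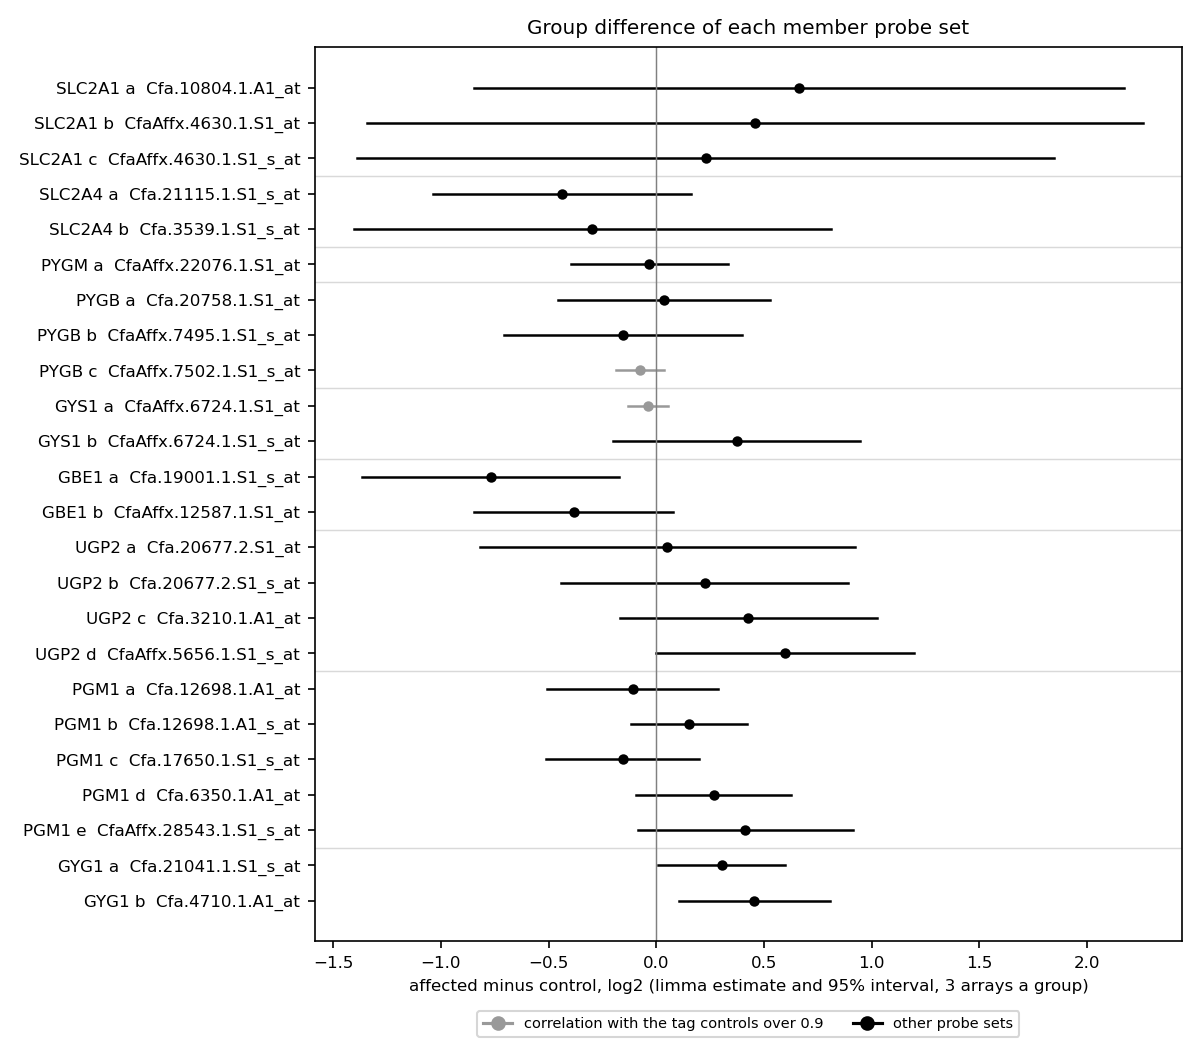
Affected minus control difference of each member probe set on the log2 scale, with the 95% interval of the limma fit (not adjusted for the number of probe sets); grey marks the 2 probe sets that followed the tag controls at a correlation over 0.9. The intervals of both GYG1 probe sets and of 1 GBE1 probe set exclude 0, and the 3 SLC2A1 intervals are the widest.

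GYS1, the muscle form of glycogen synthase, was read by a pair of probe sets that disagreed. Probe set a varied by 0.05 in all over the 6 arrays, which put it at the 0.28 percentile of all probe sets by range, and followed the tags at a correlation of 0.95. A difference of GYS1 could not be read from it apart from that profile. Probe set b had 0.12, -0.04 and 0.38 on affected 1 to 3 and -0.05, -0.65 and 0.04 on control 1 to 3. Control 2 was lowest and affected 3 highest, and the groups overlapped. The difference of this probe set was 0.37 (SE 0.22, limma adjusted p = 0.301), and it was 0.16 without control 2.

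UGP2, which supplies the sugar donor UDP-glucose, had 4 probe sets with positive differences of 0.05 to 0.60. Probe set d had 0.62, 0.05 and 0.32 on affected 1 to 3 and -0.05, -0.07 and -0.67 on control 1 to 3, a difference of 0.60 (SE 0.24, limma adjusted p = 0.296). The groups did not overlap there, with affected 2 next to control 1. Probe set c differed by 0.43 (SE 0.23) with overlap, and its profile ran opposite to the tags (correlation -0.95). Probe sets a and b had other high arrays. The first gave 0.62, -0.24 and -0.03 in the affected and 0.57, 0.03 and -0.41 in the control dogs, and the second 0.52, 0.03 and -0.03 in the affected and 0.39, -0.14 and -0.41 in the control dogs. Affected 1 and control 1 were the high arrays in both, as they were for macrophage markers (2.43 and 1.51). These probe sets differed by 0.05 and 0.23 between the groups, and the first by -0.20 without affected 1 and -0.19 without control 3. Control 3 was lowest in all 4 probe sets, and without it probe sets b, c and d differed by 0.05, 0.20 and 0.39. The gene mean difference of 0.33 (SE 0.23, limma adjusted p = 0.355) was 0.11 without control 3 and 0.20 without affected 1.

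PGM1 had the most probe sets, 5, and they did not describe 1 profile: correlations between them ran from -0.80 to 0.98 over the 6 arrays. Probe set e had 0.45, -0.09 and 0.36 on affected 1 to 3 and 0.09, -0.22 and -0.39 on control 1 to 3. Affected 1 and affected 3 were above all controls, and affected 2 was not. Its difference was 0.41 (SE 0.20, limma adjusted p = 0.296), and 0.09 for affected 2 alone against the controls. In probe sets d and b the affected values lay between -0.02 and 0.04, while control 1 and control 3 were low (-0.31 and -0.50 in the first, -0.15 and -0.32 in the second). Both ran opposite to the tags, with correlations of -0.95 and -0.93. Probe set a instead had its highest value, 0.48, on control 3, and differed by -0.11, and probe set c differed by -0.16. Without control 3, probe sets a, b and d differed by 0.06, 0.06 and 0.15, and without control 1 probe set c differed by -0.04. The gene mean was 0.04 ± 0.07 in affected and -0.07 ± 0.06 in control hearts (SD, n = 3 each), a difference of 0.11 (SE 0.06, limma adjusted p = 0.322).

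The phosphorylase genes that release glucose from glycogen had the smallest gene mean differences of the 9. PYGM, mutated in human McArdle disease, had 1 probe set with 0.02, -0.09 and 0.23 on affected 1 to 3 and -0.06, 0.33 and -0.02 on control 1 to 3. The groups overlapped fully, and the difference of -0.03 (SE 0.14, limma adjusted p = 0.880) had a 95% interval from -0.40 to 0.33. It was 0.09 without control 2. A change within these bounds could not be told from none with 3 arrays a group. The bounds are no limit of detection, since a larger difference, -0.77 in GBE1 probe set a, did not pass the adjusted threshold either.

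PYGB, the brain form, had 3 probe sets. Probe set a had -0.36, 0.01 and 0.38 in the affected and -0.01, 0.01 and -0.07 in the control dogs, so the affected dogs lay on both sides of a narrow control group. Probe set b repeated the order of the affected dogs, with -0.33, -0.09 and 0.34, against 0.39, -0.09 and 0.09 in the controls. The differences were 0.04 and -0.15 (limma adjusted p = 0.899 and 0.617). Without affected 3 probe set a differed by -0.15, and without affected 1 probe set b differed by 0.00. The remaining one, probe set c, had values between -0.03 and 0.10 and followed the tags at 0.99. The gene mean difference was -0.06 (SE 0.13, limma adjusted p = 0.748, 95% interval -0.40 to 0.27), and it was -0.19 without affected 3 and 0.05 without affected 1.

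**Figure D4:**
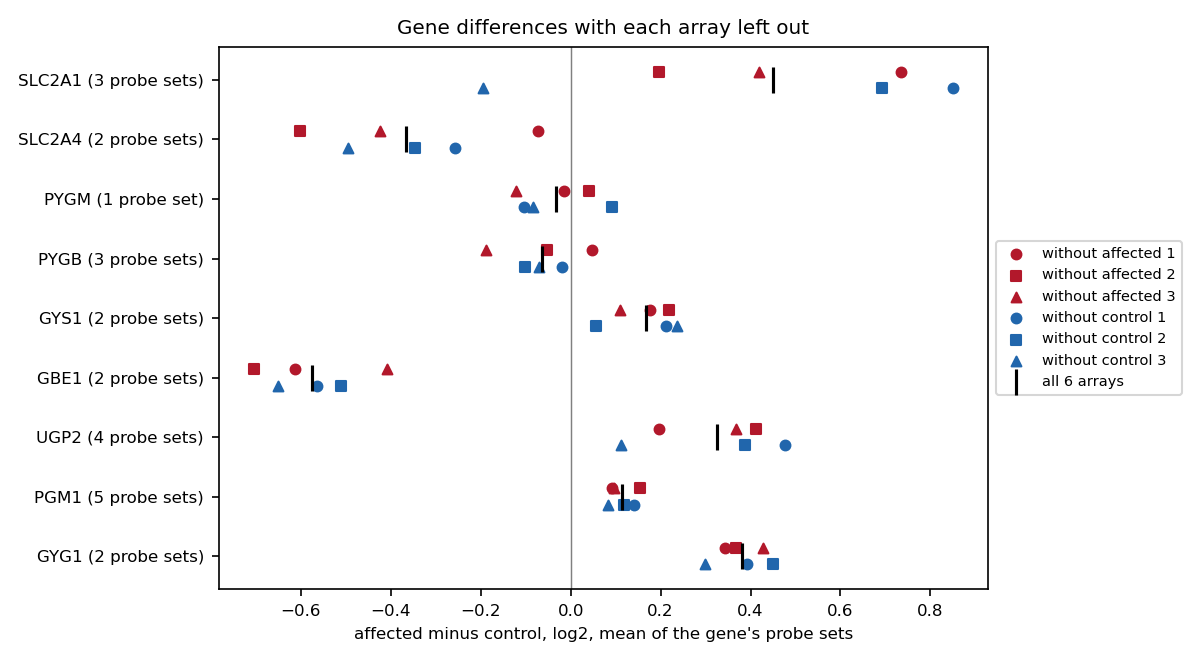
Affected minus control difference of each gene mean (log2, rows) with all 6 arrays (black bars) and with each array left out (red symbols for an affected and blue for a control dog, the shape giving its number). The SLC2A1 symbols run from -0.20 without control 3 to 0.85 without control 1, while those of GYG1 stay between 0.30 and 0.45 and those of GBE1 between -0.71 and -0.41.

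The gene patterns most like that of GYG1 probe set b, the member probe set with the smallest p, belonged to ATR, ATRIP, ROCK1, HDAC3 and GOLIM4. Their correlations with it were 0.99 or 1.00 over the 6 arrays. Such likeness was common, since 465 of 4983 genes with a range of at least 1 passed 0.9.

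The wider pathway list, as reported here, held 41 genes, each measured by a probe set of its own. None passed the adjusted threshold in limma. At an unadjusted p under 0.05, 2 were higher and 1 lower, against 4.88% and 5.64% of all genes. The count of higher ones was 5 without affected 2 and 1 without affected 3 or control 3, and that of lower ones was 3 without affected 1, 4 without affected 2 or control 2 and 2 without affected 3. The share of all genes in these fits was not counted. Over all probe sets, in either direction, it ran from 4.83% without affected 3 to 35.7% without control 2. The median difference of the pathway genes was -0.08 with 14 of 41 above 0, against -0.07 with 5285 of 15115 above 0 over all genes, and 7 of the 41 followed the tags.

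The largest pathway difference belonged to PPP1R3B, a subunit that brings protein phosphatase 1 to glycogen and so favours its synthesis. Its probe set had -1.35, -0.35 and -1.98 on affected 1 to 3 and 0.36, 0.35 and 1.49 on control 1 to 3. All affected values were below all control values, and affected 2 was again closest to the controls. The correlation of this probe set with the tags was 0.82. The difference was -1.96 (SE 0.53, limma adjusted p = 0.322), or 3.88-fold lower. It was -1.08 for affected 2 alone against the controls and -1.58 without control 3. The other 4 targeting subunits differed by -0.07 to 0.30, and 2 of them followed the tags.

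Phosphorylase kinase, which switches glycogen phosphorylase on, gave both higher genes. PHKB, its beta subunit, had gene means of 0.16, 0.32 and 0.70 on affected 1 to 3 and -0.19, -0.19 and -0.43 on control 1 to 3, a difference of 0.66 (SE 0.16, limma adjusted p = 0.322). One of its probe sets was without overlap at 0.77, and the other overlapped at 0.55. The PHKB gene mean had a correlation of -0.78 with the tags. PHKA1, the muscle alpha subunit, had 0.48, 0.07 and 0.12 in the affected and -0.02, -0.35 and -0.15 in the control dogs, a difference of 0.40 (SE 0.15, limma adjusted p = 0.322). One of its probe sets followed the tags, and the other differed by 0.97 (SE 0.28). The other 3 subunits overlapped between the groups. PHKG2 differed by 0.65, and by 0.31 without control 3. PHKA2 differed by -0.90, and by -0.34 without affected 2. PHKG1 differed by -0.25, and by 0.00 without control 3.

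GSK3B, a kinase that inhibits glycogen synthase, had 0.03, 0.32 and 1.11 on affected 1 to 3 and -0.03, -0.31 and -0.32 on control 1 to 3, a difference of 0.71 (SE 0.30, limma adjusted p = 0.322). It was 0.39 without affected 3, the array that carried the highest value. PYGL, the liver phosphorylase, which is also found in leukocytes, differed by 0.61 (SE 0.25, limma adjusted p = 0.322) and was highest on affected 1, at 0.89, where macrophage markers were also highest. Its 4 probe sets disagreed: the differences were 0.50 and 0.75 with overlap, 1.25 (SE 0.32, 2.38-fold) without overlap, and -0.05 in 1 that followed the tags at 0.99. Its difference was 0.36 without affected 1 and 0.22 for affected 2 alone against the controls. GYG2, the liver glycogenin, differed by -0.13, or -0.09 without control 3, and followed the tags at a correlation of 0.99.

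The 4 other transporters differed by -0.57 to 0.00, and 1 of them followed the tags. The hexokinases, which trap glucose in the cell as its phosphate, differed by -0.07 and -0.06, and 1 of these 2 followed the tags. Of 6 genes of insulin signalling to GLUT4, 5 were below 0, with a range of -0.65 to 0.05. TXNIP, which restrains glucose uptake, differed by 0.04. The 6 subunits of AMP-activated protein kinase, an energy sensor, ran from -0.76 to 0.14, with 4 below 0. None of the genes in this paragraph reached an unadjusted p under 0.05 in limma, and most of all genes on these arrays lay below 0 too. Of the 41 pathway differences, 35 moved by over 1.5 times or changed sign when 1 array was left out, and 14 changed sign. The same share over all genes was not counted, and a difference near 0 meets these criteria easily. The 6 that did neither were PPP1R3B, PHKB and PHKA1, which had the smallest p of the list, and 3 genes that followed the tags.

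**Figure D5:**
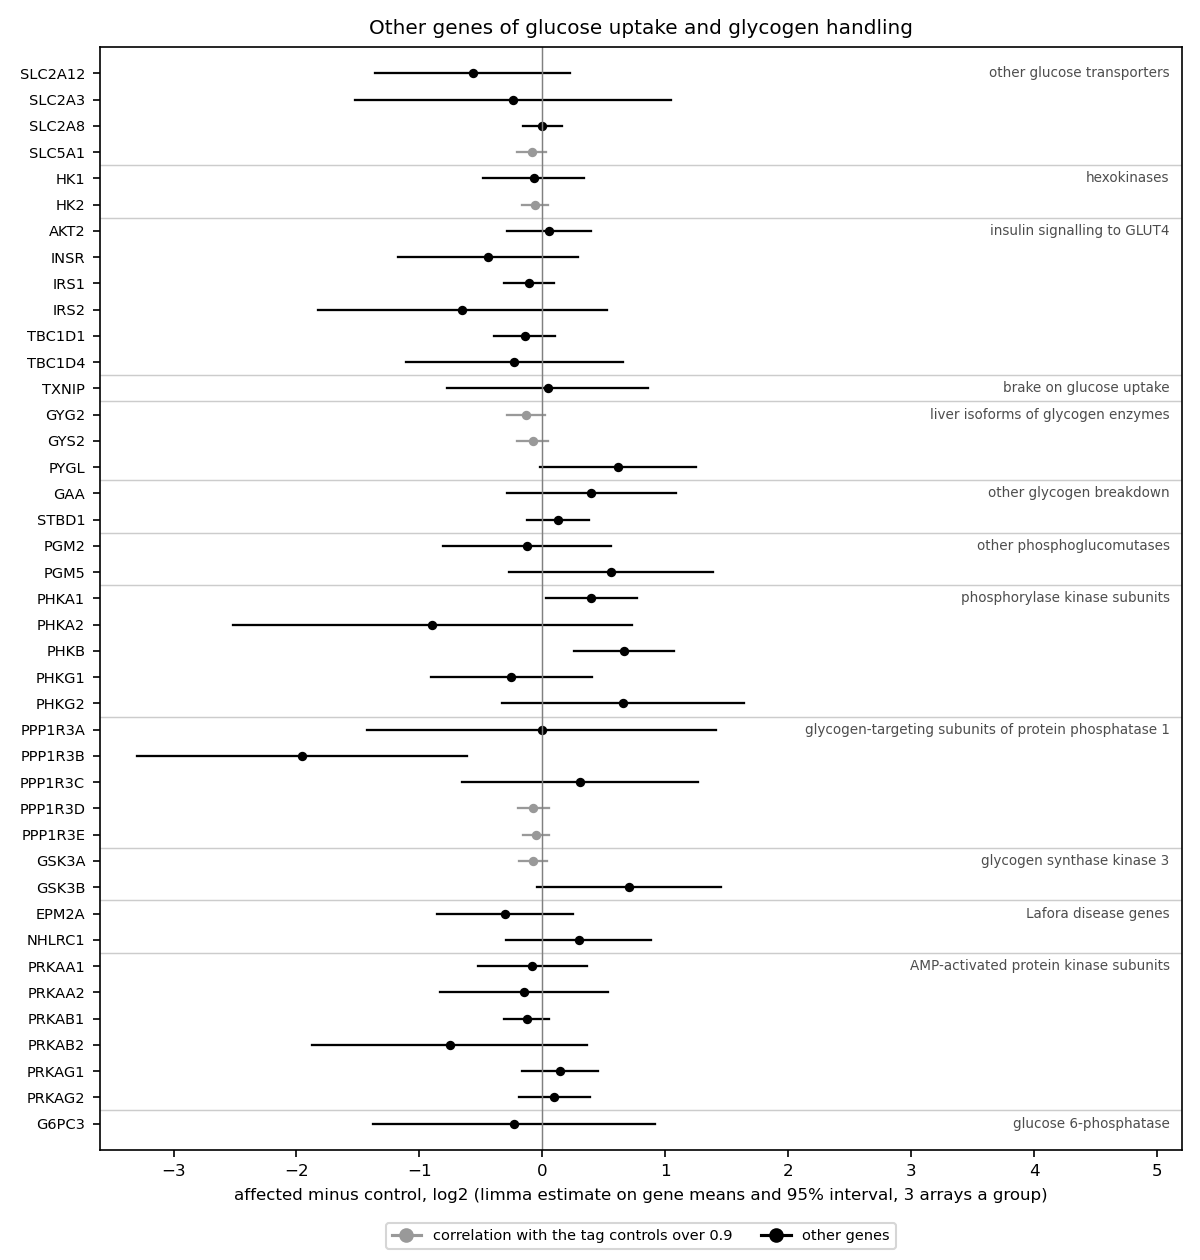
Affected minus control difference of the 41 measured pathway genes (gene means, log2), grouped by role, with the 95% interval of the limma fit; grey marks genes that followed the tag controls at a correlation over 0.9. PPP1R3B lies farthest from 0, at -1.96, and the intervals of PPP1R3B, PHKB and PHKA1 exclude 0.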

How the data were processed

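The deposited table holds the authors' processed values for 43035 probe sets on 6 arrays, and they were used here as log2 values. Per the submitters' processing notes GCRMA and MAS5 were used, in roles and versions that are not stated. That the scale is log2 was inferred from GCRMA and from the range of the values. Every probe set's median over the 6 arrays was 0 (largest absolute median 5e-07), so the deposited log2 values are differences between arrays and carry no expression level. The genome build is not given in the sources used here.

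Without the 111 control probe sets, 42924 were tested. The array annotation gave 29254 of these 1 gene symbol, 439 several and 13231 none. All 9 members matched a RefSeq gene by gene identifier. A gene mean is the mean of all probe sets with that symbol alone (15115 genes). The groups were compared in R 4.3.3 by limma 3.58.1, through lmFit and eBayes with no covariate and two-sided p-values (4 residual degrees of freedom, and 1.13 prior ones for probe sets and 1.28 for gene means). P-values were adjusted by Benjamini-Hochberg over all probe sets or all genes, with a threshold of 0.05. No filter on low values was used, since no level was at hand. SE is the moderated standard error. In simulated data with the spread of these 42924 probe sets, the fit called 27, 39, 42 and 46 of 50 probe sets changed by 1, 2, 3 and 4 on the log2 scale, and 13 unchanged ones. The simulated noise was independent for each probe set and array, without the shared differences between arrays seen here. The changed probe sets were picked at random from all, including many of small range. Their recovery therefore does not give the power for the members. The number of arrays limits the precision.

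The members and the gene lists were chosen with earlier results of these data known. One gene of the pathway list is not reported here. The rule for named genes took every member probe set, the pathway genes at an unadjusted p under 0.05 with the next by p up to 6, and the 5 genes most like the member probe set with the smallest p. PHKG1, PHKG2, PHKA2 and TXNIP were named in addition, after their values were seen. Alternatives were a filter on range (leaving out the lowest 40%, under 0.351), quantile normalization, median centring, sex, age, the replicate number as a block, a term for affected 1 and affected 3, a robust variance prior, the probe set with the largest range in place of the gene mean, leaving out each array, and, chosen after seeing the data, leaving out probe sets that followed the tag controls.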

Additional observations from a re-analysis of the deposited data

How the results depend on the processing

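No member probe set and no pathway gene passed the adjusted threshold in limma in any of the 15 alternatives, with 2 higher and 1 lower member probe set at an unadjusted p under 0.05 in the fit as reported. With single arrays left out, the count of higher member probe sets at that unadjusted p ran between 0 and 4 and the count of lower ones between 0 and 2. The pathway counts ran between 1 and 5 higher and 1 and 4 lower. The share of all probe sets, in either direction, ran from 4.83% without affected 3 to 35.7% without control 2. With age as a covariate that share was 29.5%. The term for affected 1 and affected 3 left affected 2 alone against the controls and gave 0 higher and 0 lower member probe sets. Sex as a covariate gave 2 lower member probe sets and 2 lower pathway genes, age gave 2 lower pathway genes, and the filter on range gave 4 higher pathway genes. With the replicate number as a block, 2 member probe sets were higher and 1 lower, with 3 higher and 1 lower pathway genes. The higher ones were not the same: GYG1 probe set b had an unadjusted limma p of 0.0528 and GYS1 probe set b one of 0.0415. No adjusted call changed. Deviations from the group means correlated at 0.27, 0.15 and 0.02 for numbers 1, 2 and 3. Of the arrays, 3 affected and 2 control ones correlated best with their own number. With 3 arrays a group, these correlations cannot show whether the numbers pair the dogs. Over the alternatives the differences of GYG1, GBE1, UGP2, PGM1 and GYS1 kept their sign as gene means. For GYG1 and GBE1, whose groups were apart in every probe set, only quantile normalization, median centring and age could have turned it. Leaving out the probe sets that followed the tags, or those of small range, moved GYS1 to 0.37 and PHKA1 to 0.97, which left 1 probe set each. All 6 leave-out fits rest on 2 arrays in one group. No pseudocount could be varied, since the values hold no level.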
